A study of Mus musculus with 8 samples.

Results

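Of the 10 bile acid synthesis enzymes measured in *Agpat3* KO liver, *Cyp7b1*, the oxysterol 7α-hydroxylase of the alternative pathway, was lower than in WT liver by 2.92-fold. It was the only enzyme to pass the test, narrowly, with a limma adjusted p of 0.188 at a lenient threshold of 0.2. It passed in only 1 of 8 fits that left out 1 array. All 4 KO mice lay below all 4 WT mice for *Cyp7b1*, and 1 of them, KO replicate 3, lay far below the rest. Without that mouse *Cyp7b1* was 2.09-fold lower. *Cyp7a1* and *Cyp8b1*, which set the amount and the composition of the bile acid pool, differed between the genotypes by less than the spread between mice. The enzymes *Cyp27a1*, *Hsd3b7*, *Slc27a5*, *Baat* and *Acox2* lay within 1.5-fold of WT over the whole of their 95% confidence intervals.

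The enzymes were taken by name. They are *Cyp7a1*, *Cyp7b1*, *Cyp8b1*, *Cyp27a1*, *Cyp39a1*, *Hsd3b7*, *Akr1d1*, *Slc27a5*, *Baat* and *Acox2*, and they are 10 of the 22911 genes named on the array. They have 14 of its 56605 probes, with 2 probes each for *Cyp7b1*, *Akr1d1*, *Baat* and *Acox2*. All 14 were well above background on all 8 arrays, so that no enzyme entered the test through 1 genotype only. For a gene with 2 probes, the brighter one is given unless the other is named.

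The livers came from male C57BL/6 mice at 10 weeks of age, 4 of the genotype *Agpat3* WT and 4 *Agpat3* KO, with no treatment given in the labels. *Agpat3* encodes an acyltransferase that puts docosahexaenoic acid into phospholipids, and the study asked how the liver transcriptome differs without it. The deletion was in the whole animal and not in hepatocytes alone, so effects of other tissues on the liver are part of each difference. Each liver was hybridized to 1 one-color Agilent array. All values are log2 signals minus the 75th percentile of their own array, a scale on which the values of different probes cannot be set against each other, because probes differ in brightness. All arrays lay on 1 slide with WT in row 1 and KO in row 2, so row and genotype cannot be told apart.

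Bile acids are made from cholesterol in hepatocytes, and their synthesis is the main way by which the body disposes of cholesterol. In the classic pathway CYP7A1 hydroxylates the ring of cholesterol first, and its gene is held in check by bile acids that return from the gut. In the alternative pathway CYP27A1 first oxidizes the side chain, and CYP7B1 then hydroxylates the ring of the resulting oxysterol. CYP39A1 does the same for another oxysterol. HSD3B7 and AKR1D1 change the ring of all intermediates, and CYP8B1 adds the hydroxyl group that makes cholic acid. ACOX2 shortens the side chain in peroxisomes, and SLC27A5 and BAAT couple bile acids to coenzyme A and then to taurine. In mice CYP7B1 is more abundant in male than in female liver.

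The arrays were of like quality, with 29888 to 31892 probes well above background and no saturated spot. The brighter *Agpat3* probe was lower in KO by 6.12 on the log2 scale (standard error 0.14), as the labels say. The 9 hepatocyte markers measured of a list of 10, *Alb* and *Ttr* among them, were well above background on all arrays, and none was called in either direction (limma, 0 of 9 at an unadjusted p under 0.05). A gene is said to be called where its fold change is over 1.5 and its adjusted p from limma is under 0.2, a lenient rule that applies the thresholds of the study's volcano plot to an adjusted p. By this rule 0.939% of 29069 probes tested were higher and 0.726% were lower in KO. By the brightest probe of each of 14067 genes, 1.01% of genes were higher and 0.754% were lower.

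Of the 10 enzymes, 0 were called higher and 1 was called lower, and 2 had an unadjusted p under 0.05 from limma, *Cyp7b1* and *Baat*, where 14.0% of all genes tested had one. For 1 enzyme the KO mice were all above the WT mice, a placing found in 3.84% of all genes tested, and for 1 they were all below, a placing found in 5.89%. The log2 fold change was positive for 5 enzymes and negative for 5, with a median of 0.0040, against -0.03 over all genes tested. The signs of *Hsd3b7* and *Slc27a5* turned with quantile normalization and that of *Acox2* with median normalization, all within 0.04 of 0.

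**Figure D1:**
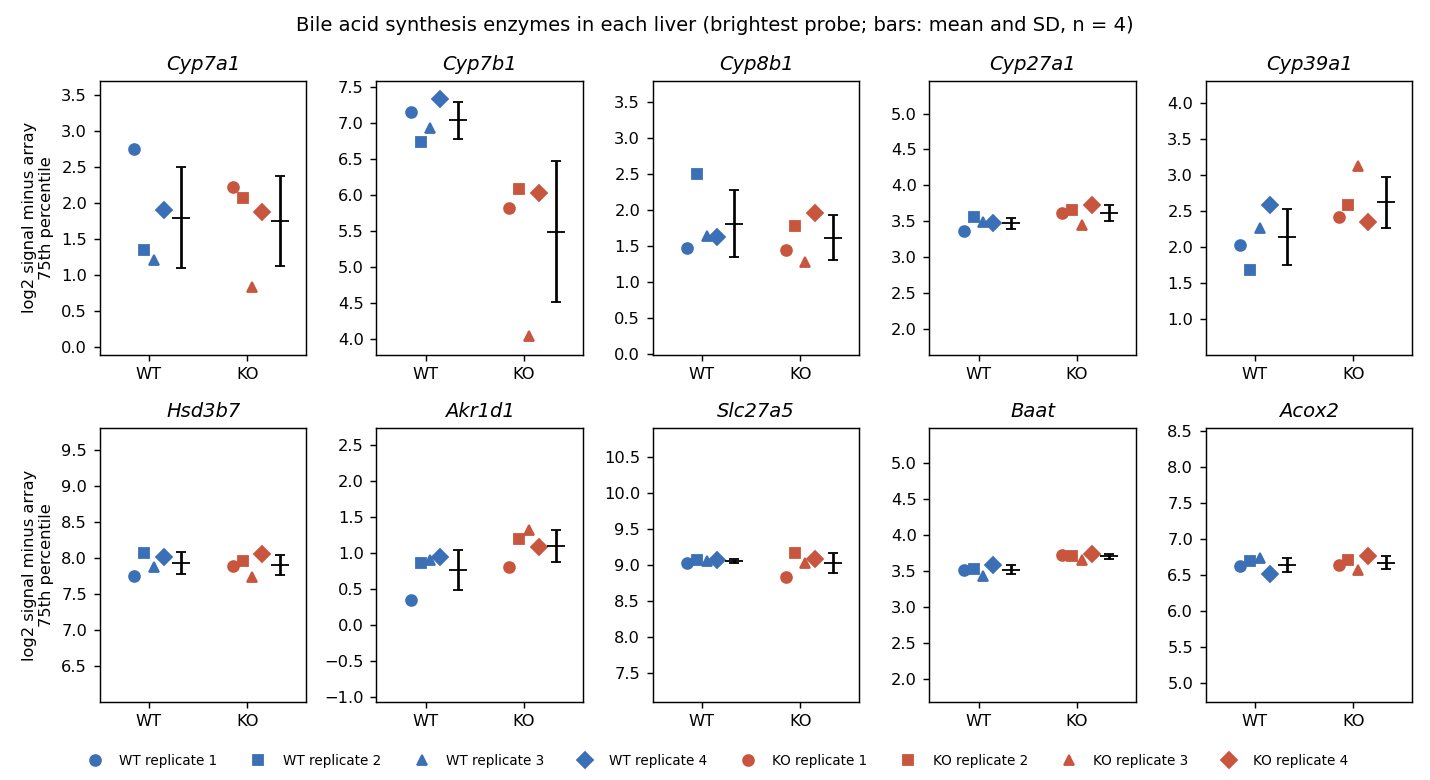
The log2 signal of each enzyme, minus the 75th percentile of its array, in the 4 WT livers (blue) and the 4 KO livers (red). Each symbol is a mouse, bars show the mean and SD, and every panel spans the same range of log2 units. The KO livers lie below the WT livers for *Cyp7b1*, with replicate 3 (triangle) lowest at 4.04, and the points of *Cyp7a1* and *Cyp8b1* are widely scattered within both genotypes.

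*Cyp7a1*, the rate-limiting enzyme of the classic pathway, gave log2 signals of 2.75, 1.35, 1.20 and 1.90 in WT mice and of 2.23, 2.07, 0.84 and 1.88 in KO mice. The genotypes overlapped over nearly their whole range, with the highest value in WT replicate 1 and the lowest in KO replicate 3. The means were 1.80 ± 0.70 in WT and 1.75 ± 0.62 in KO (SD, n = 4 each), and their difference of -0.05 on the log2 scale had a standard error of 0.40 (limma adjusted p = 0.974). The 95% confidence interval ran from -0.97 to 0.87, or from 0.510-fold to 1.83-fold, so a change of that size in either direction was not detectable with these arrays. The sign turned to 0.27 without WT replicate 1 and to 0.26 without KO replicate 3.

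*Cyp7a1* varied between mice of the same genotype more than most genes. Its within-genotype SD was 0.664 on the log2 scale, and 1.95% of the genes tested had a larger one. The 5 genes whose log2 signals followed those of *Cyp7a1* most closely over the 8 mice, by the root mean square difference after each gene was centered on its own mean, were *Rnf217* (0.267), *Pms1* (0.268), *Gm38416* (0.284), *Pprc1* (0.290) and *Adgrl2* (0.290). None of these 5 was called, which largely follows from the choice, because the measure takes in the difference between the genotypes. None of the 10 enzymes was among them.

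*Cyp27a1*, the mitochondrial sterol 27-hydroxylase that opens the alternative pathway, was among the least variable enzymes. Its log2 signals were 3.37, 3.56, 3.49 and 3.48 in WT and 3.62, 3.66, 3.46 and 3.73 in KO, with KO replicate 3 inside the WT range and the other KO mice above it. The log2 fold change was 0.14 (standard error 0.08, 95% confidence interval -0.04 to 0.33, limma adjusted p = 0.51).

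*Cyp7b1*, which acts after CYP27A1, gave log2 signals of 7.16, 6.74, 6.93 and 7.33 in WT mice and of 5.82, 6.09, 4.04 and 6.03 in KO mice. The genotypes did not overlap: the lowest WT mouse lay 0.66 above the highest KO mouse. The means were 7.04 ± 0.26 in WT and 5.49 ± 0.98 in KO (SD, n = 4 each). The log2 fold change was -1.55 (standard error 0.43, 95% confidence interval -2.54 to -0.56, limma adjusted p = 0.188), and the exact permutation test gave p = 0.0286 (two-sided), the smallest that 4 mice against 4 allow. In whole liver RNA, less *Cyp7b1* RNA per cell and fewer cells that hold it cannot be told apart.

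The second *Cyp7b1* probe, designed to another transcript of the gene, behaved alike. It read 4.67, 4.23, 4.29 and 4.89 in WT and 3.21, 3.55, 1.30 and 3.53 in KO, again with no overlap and with KO replicate 3 lowest. Its difference was -1.62 on the log2 scale, with a standard error of 0.48. With a limma adjusted p of 0.207 it missed the threshold that the brighter probe passed, so the gene lies at the edge of the call. The dimmer probe was called with normexp background correction (adjusted p = 0.167), median normalization (0.172) and a trended and robust eBayes (0.188). The 2 probes report on the same livers and are not independent of each other.

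KO replicate 3 set much of the size of the *Cyp7b1* difference and of its error. It lay 8.02-fold below the WT mean, whereas KO replicates 1, 2 and 4 lay 2.33-fold, 1.94-fold and 2.02-fold below it. Without KO replicate 3 the log2 fold change was -1.06, or 2.09-fold lower, with a standard error of 0.15 and a limma adjusted p of 0.0538, and the dimmer probe was then called too, at -1.08 with an adjusted p of 0.0836. The call was lost when any 1 of the other 7 arrays was left out, with limma adjusted p between 0.218 and 0.347 and log2 fold changes between -1.74 and -1.45. It was also lost when dim probes were kept in the test (adjusted p = 0.403), where the log2 fold change stayed at -1.55.

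**Figure D2:**
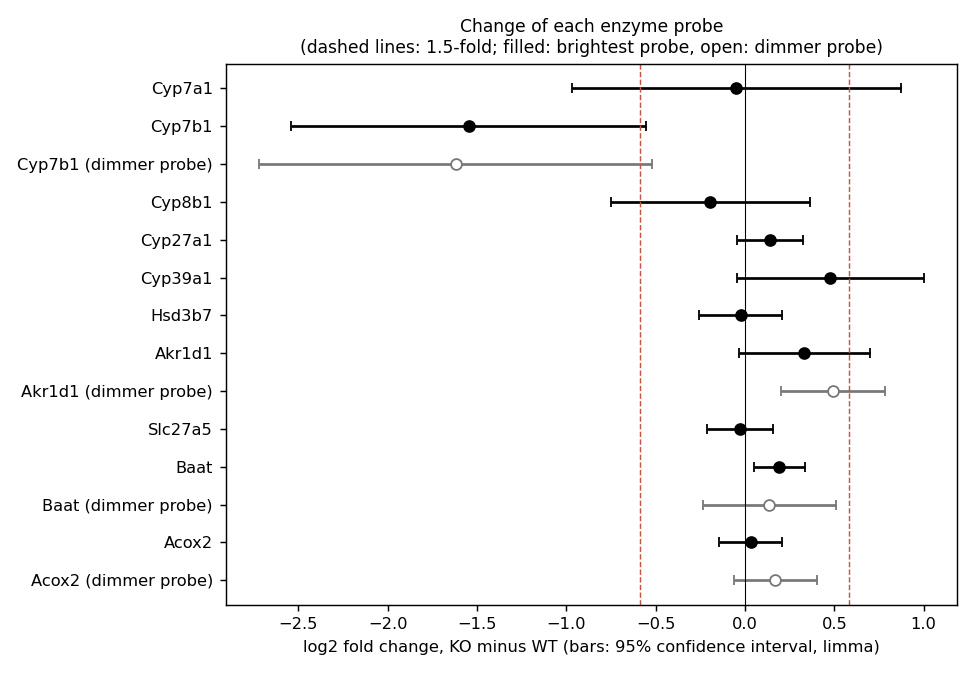
Log2 fold change of KO against WT for the 14 probes of the 10 enzymes, with the 95% confidence interval from limma. Filled points are the brightest probe of a gene and open points its dimmer probe, and dashed lines mark 1.5-fold. Both *Cyp7b1* probes lie near -1.6, with intervals that reach to about the 1.5-fold line, and the intervals of *Cyp7a1* and *Cyp8b1* cross both 0 and a 1.5-fold line.

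*Cyp39a1*, the 7α-hydroxylase of 24-hydroxycholesterol, gave log2 signals of 2.03, 1.68, 2.27 and 2.59 in WT and of 2.42, 2.59, 3.13 and 2.35 in KO. KO replicate 3, lowest for *Cyp7b1*, was the highest of the 8 mice here. The log2 fold change of 0.48 (standard error 0.23, 95% confidence interval -0.05 to 1.00) had a limma adjusted p of 0.419, and the genotypes overlapped. It was 0.31 without KO replicate 3.

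*Hsd3b7*, which converts the hydroxylated sterols of both pathways to ketones, read 7.75, 8.08, 7.89 and 8.03 in WT and 7.89, 7.96, 7.74 and 8.06 in KO. The genotypes overlapped fully, with a log2 fold change of -0.02 and a 95% confidence interval from -0.26 to 0.21 (limma adjusted p = 0.944).

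*Cyp8b1*, the sterol 12α-hydroxylase that directs intermediates to cholic acid, read 1.47, 2.50, 1.65 and 1.63 in WT and 1.45, 1.78, 1.29 and 1.96 in KO. WT replicate 2 stood above the other mice, and the remaining WT mice lay inside the range of the KO mice. The log2 fold change was -0.19 (standard error 0.24, 95% confidence interval -0.75 to 0.36, limma adjusted p = 0.786), and it was 0.04 without WT replicate 2.

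*Akr1d1*, the reductase that sets the ring geometry of bile acids, had 2 probes to 1 transcript, of which only the dimmer one separated the genotypes. The brighter probe read 0.35, 0.87, 0.91 and 0.95 in WT and 0.81, 1.20, 1.32 and 1.08 in KO, which overlap at WT replicates 2 to 4 and KO replicate 1. The dimmer probe read -0.34, 0.11, 0.21 and 0.21 in WT and 0.50, 0.56, 0.61 and 0.49 in KO, with all KO mice above all WT mice. The log2 fold changes were 0.33 (standard error 0.16, limma adjusted p = 0.422) and 0.49 (standard error 0.13, limma adjusted p = 0.159). Neither was called, since the dimmer probe passed the p threshold at 1.41-fold, under the fold change of 1.5.

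The enzymes of the side chain and of conjugation varied little between mice. *Acox2* read 6.62, 6.69, 6.74 and 6.51 in WT and 6.64, 6.71, 6.57 and 6.77 in KO, with a log2 fold change of 0.03 (95% confidence interval -0.15 to 0.21). *Slc27a5*, the bile acyl-CoA synthetase, read 9.02, 9.07, 9.05 and 9.08 in WT and 8.84, 9.17, 9.02 and 9.09 in KO, with a log2 fold change of -0.03 (95% confidence interval -0.21 to 0.16). The genotypes overlapped for both, and the limma adjusted p were 0.9 and 0.917. The dimmer *Acox2* probe had a log2 fold change of 0.17 (limma adjusted p = 0.528).

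*Baat*, which joins bile acids to taurine, read 3.51, 3.52, 3.43 and 3.58 in WT and 3.72, 3.71, 3.65 and 3.73 in KO. All KO mice lay above all WT mice (exact permutation test, two-sided, p = 0.0286), by a small amount: the log2 fold change was 0.19 (standard error 0.06, 95% confidence interval 0.05 to 0.33), or 1.14-fold. Its limma adjusted p was 0.252, so it was not called. Its within-genotype SD of 0.0507 was small among genes, and 96.7% of the genes tested had a larger one. The dimmer *Baat* probe, at 0.14 with a limma adjusted p of 0.774, had overlapping genotypes.

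**Figure D3:**
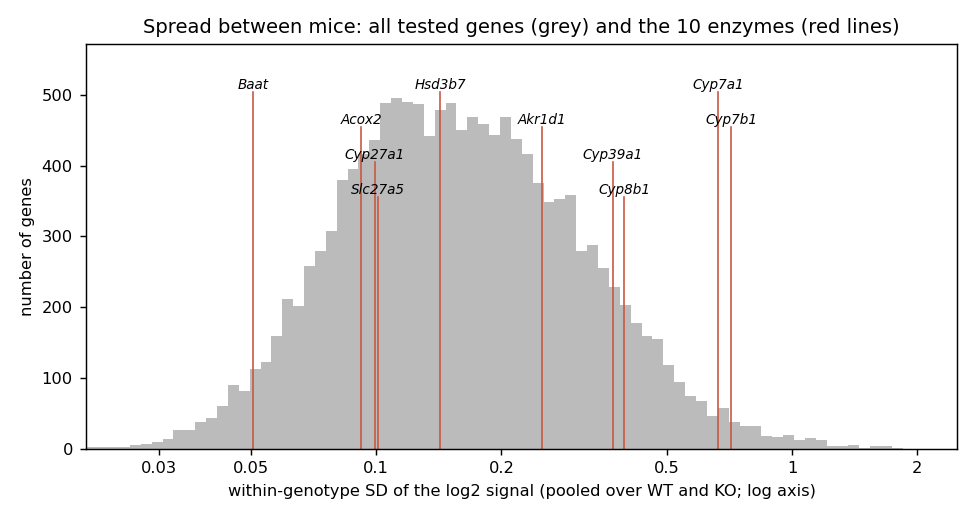
Within-genotype SD of the log2 signal, pooled over WT and KO, for all 14067 genes tested (grey histogram, log axis) and for the 10 enzymes (red lines). *Cyp7a1* (0.664) and *Cyp7b1* (0.714) lie in the right tail, *Baat* (0.0507) in the left tail.

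The enzymes thus differed widely in how much they varied between mice of 1 genotype. At the variable end were *Cyp7b1* with an SD of 0.714, *Cyp7a1*, *Cyp8b1* with 0.395 and *Cyp39a1* with 0.371, for which 1.49%, 1.95%, 9.12% and 10.7% of genes had a larger SD. *Akr1d1* (0.251) and *Hsd3b7* (0.142) were in the middle. *Slc27a5* (0.101), *Cyp27a1* (0.0991), *Acox2* (0.0921) and *Baat* were at the stable end. The confidence intervals were wider for the more variable enzymes, so that for these only large differences could have passed the test. Because limma draws the variance of each probe toward that of all probes tested, the width does not follow from its own spread alone.

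KO replicate 3 was the lowest of the KO mice for 7 of the 10 enzymes and the highest for 2, *Cyp39a1* and *Akr1d1*. Over 14059 genes with no missing value the same mouse was the lowest of the KO mice for 20.8% and the highest for 37%. It was the lowest of all 8 mice for 4 enzymes, *Cyp7a1*, *Cyp7b1*, *Cyp8b1* and *Hsd3b7*, a placing it held in at most 20.8% of the 14059 genes. Without it the median log2 fold change of the 10 enzymes was 0.13 in place of 0.0040. The enzymes share these livers, so their values in 1 mouse are not separate observations.

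Because *Cyp7b1* is a male-predominant gene, its values were set beside lists of male-biased and female-biased liver genes. Of 13 male-biased genes tested of 14 listed, 0 were called in either direction (limma, 3 at an unadjusted p under 0.05). Of the 13, 11 were negative, where 58.0% of all genes tested were. Some lists read below leaned as far, with 13 of 14 periportal and 9 of 10 stellate cell genes negative. Others did not, with 7 of 13 pericentral and 4 of 10 sinusoidal endothelial genes negative. The median log2 fold change of the male-biased genes was -0.16, or -0.07 without KO replicate 3. KO replicate 3 was the lowest of the 8 mice for 9 of these 13. Over 14059 genes it was the lowest of the KO mice for 20.8%, so the lowest of all 8 for at most that share. The 13 genes share this liver, so the 9 are not separate observations. *Susd4* read 4.42, 4.37, 4.36 and 5.01 in WT and 3.27, 4.09, 2.56 and 3.83 in KO, all KO mice below all WT mice, with a log2 fold change of -1.10 and a limma adjusted p of 0.204. *Elovl3*, a fatty acid elongase, read 6.24, 6.14, 5.60 and 6.00 in WT and 5.70, 5.005, 3.96 and 5.41 in KO, with a log2 fold change of -0.98 (limma adjusted p = 0.28), or -0.62 without KO replicate 3.

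Other genes of the male-biased list moved less. *Cyp2d9* and *Hsd3b5* had log2 fold changes of -0.30 and -0.29 (limma adjusted p = 0.452 and 0.627), and KO replicate 3 was the lowest mouse for both, at 6.17 and 5.92. *Mup20* was at -0.15, and *Cyp4a12a* and *Cyp4a12b* were at 0.16 and 0.21. The summed signal of the male-biased list, in multiples of the 75th percentile of the array, was 3393 to 3998 in WT and 3062 to 3652 in KO.

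Of 7 female-biased genes tested of 17 listed, 0 were called (limma, 2 at an unadjusted p under 0.05). Of the 7, 5 were positive and 2 negative, where 58.0% of all genes tested were negative. Their log2 fold changes ran from -0.08 to 2.92, with a median of 0.20, or 0.10 without KO replicate 3. *Cyp2b9* read -3.47, -1.01, -0.36 and -1.10 in WT and 0.02, 0.81, 4.21 and 0.72 in KO. KO replicate 3, lowest for *Cyp7b1*, was the highest here. That mouse was the highest of all for only 2 of the 7 female-biased genes, and WT replicate 4 was also the highest for 2. The log2 fold change of *Cyp2b9* was 2.92 with a limma adjusted p of 0.263. It was 2.00 without KO replicate 3, 2.26 without WT replicate 1 and 2.26 with normexp background correction. *Acot3* was at 1.29 (adjusted p = 0.201), with KO replicates 3 and 4 highest. The defining female-biased genes *Cux2*, *Hao2* and *Sult3a1* were not well above background on all arrays of either genotype. Whether what these genes share has a part in the *Cyp7b1* difference was not tested.

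**Figure D4:**
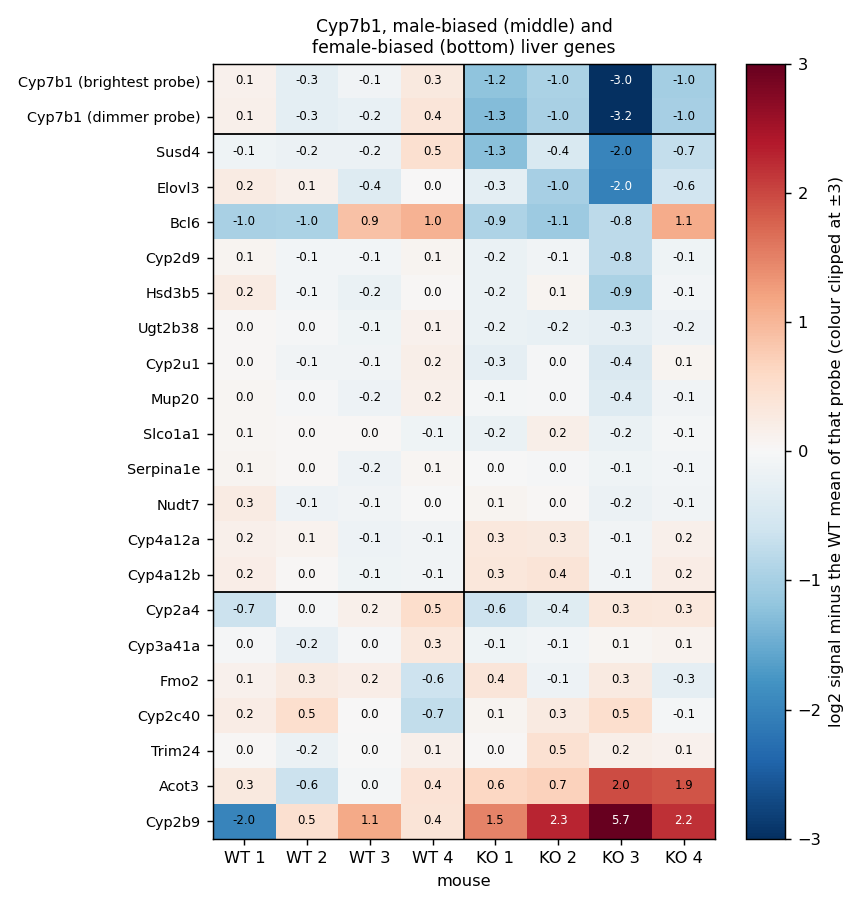
Log2 signal of each mouse minus the WT mean of the same probe, for the 2 *Cyp7b1* probes (top), 13 male-biased genes (middle) and 7 female-biased genes (bottom), with blue for lower and red for higher and the value printed in each cell. KO replicate 3 is the lowest mouse for both *Cyp7b1* probes and for 9 of the 13 male-biased genes. It is the highest for 2 of the 7 female-biased genes, *Cyp2b9* among them.

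The genes whose log2 signals followed those of *Cyp7b1* most closely over the 8 mice were looked up after its values were seen, by the measure used for *Cyp7a1*. They were *Serpine2* (0.368), *Susd4* (0.373), *Elovl3* (0.459), *Nat8* (0.465) and *Gvin1* (0.488). Of these *Serpine2*, a protease inhibitor, was called lower, with a log2 fold change of -1.40 (limma adjusted p = 0.104). The other 4 had log2 fold changes between -1.10 and -0.98 and were not called. That these genes were lower in KO, and low in KO replicate 3, largely follows from the choice, because the measure takes in both.

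Genes that supply or support the enzymes showed no call. Of 9 genes of the peroxisomal side chain steps, 0 were called in either direction (limma, 2 at an unadjusted p under 0.05), with a median of -0.02. *Scp2*, the peroxisomal thiolase and sterol carrier, was at 0.00, *Amacr*, the racemase of the side chain, at -0.07, and *Hsd17b4* at -0.02. *Abcd3*, which carries bile acid precursors into peroxisomes, was at 0.21, and *Acaa1b* at 0.26 (adjusted p = 0.266). Of 15 other sterol and bile acid hydroxylases and oxidoreductases tested of 18 listed, 0 were called (limma, 2 at an unadjusted p under 0.05), with a median of -0.05. Among them *Cyp2c70*, which makes the muricholic acids of mice, was at -0.09 and the P450 reductase *Por* at -0.09, and the widest was *Hsd17b6* at -0.59 (adjusted p = 0.342).

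The regulators of the pathway gave no call either. Of 25 tested of 27 listed, 0 were called (limma, 4 at an unadjusted p under 0.05), with a median of -0.07. The bile acid receptor FXR (*Nr1h4*) was at -0.05 and its target *Nr0b2*, the repressor SHP, at 0.01. *Fgfr4* and *Klb*, which form the hepatic receptor for the gut hormone FGF15, were at -0.15 and -0.02. *Nr5a2*, the activator LRH-1, was at -0.09. The 4 with an unadjusted p under 0.05, a share near the 14.0% of all genes, are named after their values were seen: *Hnf4a* at -0.33, *Prox1* at -0.57, *Ppargc1a* at 0.60 and *Rxra* at -0.16, with limma adjusted p between 0.237 and 0.356.

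Of 14 bile acid transporters tested of 15 listed, 1 was called higher and 0 lower (limma, 1 at an unadjusted p under 0.05). The median log2 fold change was 0.05, and the largest, 1.18, belonged to a gene that was not called. *Slc10a2*, the sodium-dependent transporter that cholangiocytes and the ileum use to take bile acids up, read 2.58, 1.83, 1.79 and 2.03 in WT and 3.24, 2.53, 3.03 and 2.64 in KO. The highest WT mouse lay above 1 KO mouse, and the log2 fold change was 0.80 (standard error 0.22, limma adjusted p = 0.176). This call held without WT replicate 1 (adjusted p = 0.119) and was lost without any other 1 array, with adjusted p from 0.22 to 0.362, or with dim probes kept in the test (adjusted p = 0.387). The canalicular exporter *Abcb11* was at -0.01 and the uptake carrier *Slc10a1* at -0.08. Without KO replicate 3 the medians were -0.01 for the peroxisomal steps, -0.04 for the other hydroxylases, -0.03 for the regulators and 0.08 for the transporters.

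**Figure D5:**
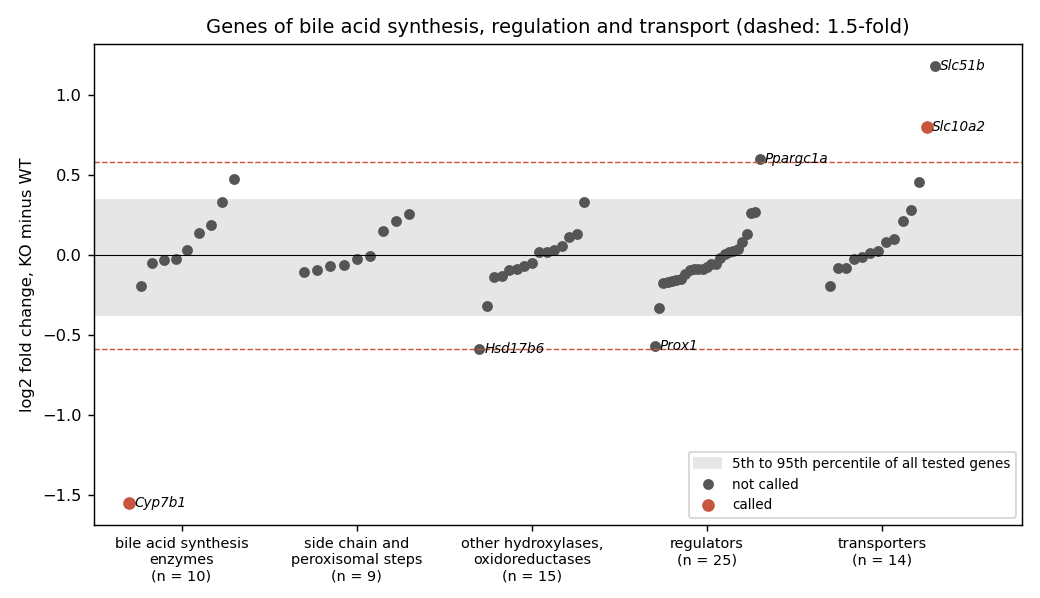
Log2 fold change of KO against WT for the 10 enzymes and for the tested genes of 4 other lists of the pathway, each point a gene by its brightest probe. The grey band runs from the 5th to the 95th percentile of all 14067 genes tested, dashed lines mark 1.5-fold, and genes beyond 0.5 in either direction are named. *Cyp7b1* at -1.55 and *Slc10a2* at 0.80 (red) are the only called genes.

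Markers of hepatocyte zones and of other liver cells were read beside these values. Of 13 pericentral genes tested of 14 listed, where bile acid synthesis is strongest, 0 were called (limma, 1 at an unadjusted p under 0.05). Of 14 periportal genes 1, *Etnppl*, was called lower at -0.60. Of 10 Kupffer cell and macrophage genes 1, *Marco*, was called lower at -1.22, and the summed signal of that list was 97.5 to 160.8 in WT and 83.0 to 138.4 in KO. No gene was called among 6 cholangiocyte genes tested of 10 listed, 10 stellate cell, 10 sinusoidal endothelial, 6 lymphocyte and 6 pancreatic acinar genes (limma, 1, 2, 1, 0 and 1 at an unadjusted p under 0.05). The summed signal of the acinar list was 44.0 to 56.7 in WT and 28.6 to 44.2 in KO, and its genes *Prss1*, *Pnlip* and *Cpa1* were not well above background on all arrays of either genotype. The part of these markers in the *Cyp7b1* and *Slc10a2* values was not tested.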

How the data were processed

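RNA of 4 *Agpat3* WT and 4 *Agpat3* KO livers was hybridized to one-color Agilent arrays, 8 in all. For each array the authors deposited spot intensities as Feature Extraction 10.7.1.1 gave them, background corrected and on a linear scale. They also deposited a table of log2 values, which was checked and equals the log2 intensity minus 1 constant per array. Samples were grouped by the genotype label. After control and outlier spots were removed, the 75th percentile of each array was subtracted from the log2 processed signals, and repeated spots were averaged per probe. The test took the 29069 of 56605 probes that all 4 arrays of either genotype showed well above background. It used limma 3.58.1 (lmFit, eBayes; R 4.3.3), was two-sided, and adjusted p over all of these probes by Benjamini-Hochberg. Single values had an exact permutation test over 70 assignments. The labels do not say how the mice are related, and the p-values measure the spread between these mice.

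Probes were named through transcript accessions in a RefSeq table of GRCm38.p6, which matched 32994 of 56605, and since the scanner output names another build no coordinates are given. A gene was read from its brightest probe. The text names all 10 enzymes and *Agpat3*, the genes of other lists that were called or that define a list, and the 5 genes nearest to *Cyp7a1*. Some list genes are named for their role. The genes nearest to *Cyp7b1*, *Hsd17b6* and 4 regulators were picked after their values were seen. The members and lists were chosen with earlier results of these data known. *Slco1a1* is on the transporter and male-biased lists, and *Alb* on the hepatocyte and periportal lists. Cross-hybridization between related genes was not tested. Alternatives were normexp (offset 50, on the median spot signal), quantile and median normalization, the deposited values, no filter on dim probes or one over all 8 arrays, inclusion of outlier spots, a trended and robust eBayes, a replicate block, each array left out, the mean of a gene's probes and other thresholds. Its calls were checked on simulated data. With 4 arrays a genotype, their number sets the precision.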

Additional observations from a re-analysis of the deposited data

Results flagged for a closer look

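In 5 of 32 groups of 4 mice examined, over the 14 enzyme probes and both *Agpat3* probes, 1 mouse lay far from the other 3 by Dixon's criterion. The criterion is set at about 1 in 20 independent groups. These groups come from the same livers, and some are 2 probes of 1 gene, so their count cannot be set against that rate. For *Cyp7b1*, KO replicate 3 read 4.04 at the brighter probe, with the other KO mice from 5.82 to 6.09, and 1.30 at the dimmer probe, with the others from 3.21 to 3.55. For *Akr1d1*, WT replicate 1 read 0.35 at the brighter probe, with the other WT mice from 0.87 to 0.95. For the dimmer *Baat* probe, KO replicate 3 read -1.82, with the others from -1.44 to -1.38. For the dimmer *Agpat3* probe, WT replicate 3 read 3.68, with the others from 3.56 to 3.58.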

How the results depend on the processing

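With 0 enzymes called higher under every alternative run, the count of enzymes called lower, 1 as reported, became 0 without a filter on dim probes and 0 at an adjusted p under 0.05. It ranged from 0 to 1 with each array left out, at 0 in all but the fit without KO replicate 3. *Cyp7b1* was negative throughout, from -1.58 to -1.53 over the other settings and from -1.74 to -1.06 with 1 array left out. With the replicate number as a block its log2 fold change was -1.55 (limma adjusted p = 0.176), and the block gave 327 probes higher and 265 lower. The dimmer *Cyp7b1* probe, *Susd4*, *Elovl3*, *Cyp2b9* and *Acot3*, not called as reported, were called with the block (adjusted p from 0.121 to 0.172). *Susd4* was also called with normexp (limma adjusted p = 0.141), median normalization (0.168), a trended and robust eBayes (0.181) and without KO replicate 2 (0.1996). *Acot3* was also called with normexp (limma adjusted p = 0.189), quantile normalization (0.195), a trended and robust eBayes (0.183) and without WT replicate 4 (0.198). The deviations of same-numbered mice correlated at 0.33, -0.11, 0.10 and 0.32, and all numbers but replicate 2 correlated best with their own. The labels name no shared litter or batch, and pairing was taken only if every number correlated over 0.1, so the block was kept as an alternative.

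Small differences changed sign: *Hsd3b7* was at 0.035 and *Slc27a5* at 0.030 with quantile normalization, and *Acox2* at -0.0059 with median normalization. With 1 array left out, *Cyp7a1* ranged from -0.25 to 0.27, *Cyp8b1* from -0.31 to 0.035, *Hsd3b7* from -0.086 to 0.034, *Slc27a5* from -0.074 to 0.037 and *Acox2* from -0.011 to 0.066.

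Over all probes, 273 higher and 211 lower became 180 and 65 with normexp, 122 and 131 without the filter, 82 and 35 at an adjusted p under 0.05, 557 and 645 without a minimum fold, and 534 and 451 with unadjusted p. The lower count was 126 with the stricter filter. With 1 array left out, 152 to 334 were higher and 105 to 311 lower. The cause was not tested. All enzyme probes were well above background on all 8 arrays.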

Other observations

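A RefSeq table of mouse promoters (GRCm38.p6), from 250 bases before to 50 after a gene's start, held 6 sequences for 5 of the enzymes, *Cyp8b1*, *Cyp27a1*, *Hsd3b7*, *Akr1d1* and *Acox2*. *Cyp7a1*, *Cyp7b1*, *Cyp39a1*, *Slc27a5* and *Baat* were not matched. Searched on both strands as letters, AGGTCA, a core of nuclear receptor sites, was in the *Akr1d1* promoter, AGTTCA in that of *Cyp27a1* and TATAAA in that of *Cyp8b1*, each in 1 of 6, where 16.3%, 14.0% and 13.6% of 32851 promoters held them. CAAGGTCA, whose last 6 letters are AGGTCA, CAAGGCCA and TCACCCCAC were in none of the 6, and in 1.56%, 2.4% and 0.551% of all promoters.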
